A study of Homo sapiens with 6 samples.

Results

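The 34 genes described here make and handle cholesterol and fatty acids. They were listed by function, with earlier results of these data known. The list holds enzymes of sterol and fatty acid synthesis, regulators of the sterol regulatory element binding proteins (SREBPs) and carriers of sterol. Each gene was found by its gene identifier among the 60660 genes of the count files. All 34 of them passed the filter on low counts, among 15155 genes tested. The samples were 6 RNA-seq libraries of 12Z, an established cell line from endometriosis that is labelled epithelial. In 3 libraries the cells had received a non-targeting siRNA (control), and in 3 libraries they had received siRNA LINC01133a at 10 nM against the long noncoding RNA LINC01133 (knockdown). Both groups were transfected with the same lipid reagent and lysed after 72 h, the knockdown rests on 1 siRNA, and all libraries come from 1 cell line.

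Cholesterol is built from acetyl-CoA through mevalonate, squalene and lanosterol, and fatty acids from acetyl-CoA through malonyl-CoA. The genes for both routes carry sterol regulatory elements that SREBPs bind. When membrane sterol is low, SCAP escorts the SREBP precursors from the endoplasmic reticulum to the Golgi, where the proteases encoded by MBTPS1 and MBTPS2 release the active factor. When sterol is plentiful, the INSIG proteins hold SCAP back, and oxysterols activate the LXR receptors, which induce the exporters ABCA1 and ABCG1 and also SREBF1.

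Total counts on genes ranged from 27742562 to 37551194 per library. LINC01133 fell from 823 ± 12.8 normalized counts in control cells to 133 ± 4.68 in knockdown cells (SD, n = 3 each). Control library 2 stood apart from the other control libraries. The chi-square of counts per degree of freedom was 11.9 and 13.1 between it and control libraries 1 and 3, against 3.75 between those, and between 2.20 and 3.51 among knockdown libraries. Values without this library are therefore given where it bears on a gene. Of 6 epithelial markers, the keratins KRT7, KRT8, KRT18 and KRT19 had RPKM values (normalized counts per kilobase of merged exon, scaled to library size) of 27.6 to 579 in control cells and CDH1 had 2.10, while EPCAM had only 0.173. The stromal markers COL1A1 and LUM were also high, at 301 and 134 RPKM. The summed RPKM of the epithelial markers was 1561 to 1648 in control libraries and 984 to 1023 in knockdown libraries, and 5 of the 6 were lower with an edgeR adjusted p under 0.05. The summed RPKM of 5 stromal markers was 479 to 546 in control libraries and 457 to 466 in knockdown libraries. Of these 5, 4 were lower at the same threshold, against the same 25.0% of all genes. The endothelial and immune markers PECAM1, CD68 and CD3E were at or near 0, and VWF and PTPRC had 20.6 and 23.8 normalized counts in control cells. The part of these shifts in the changes of lipid genes was not tested. In bulk RNA, fewer cells of a type and less RNA per cell cannot be told apart.

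The sterol and fatty acid genes did not move as a block. HMGCS1, SQLE, INSIG1, SCD, ABCA1 and ABCG1 fell by more than the cutoff for differential expression (DE), which was a fold change over 1.5 (0.585 on the log2 scale) with an adjusted p under 0.05 from edgeR's quasi-likelihood test over all genes. These 6 genes are 17.6% of the list, against 6.43% of all genes tested that were DE and lower. The list was made with earlier results of these data known, so its shares describe it and do not test it. None of the 34 genes was DE and higher, against 5.30% of all genes. Without the fold cutoff, 15 genes (44.1%) were lower with an adjusted p under 0.05, against 25.0% of all genes tested, and 4 genes (11.8%) were higher, against 23.3%. The other 15 genes did not pass. The median log2 fold change of the 34 genes was -0.10, and that of all genes tested was 0.0032. In the libraries themselves, 18 genes (52.9%) had all knockdown values below all control values, against 29.0% of all genes. Another 6 genes (17.6%) had all knockdown values above, against 28.3%, and the groups of 10 genes overlapped. Without control library 2, the same test gave 6 genes that were DE and lower, with CYP51A1 in place of ABCG1, 15 that were lower and 6 that were higher at an adjusted p under 0.05.

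**Figure D1:**
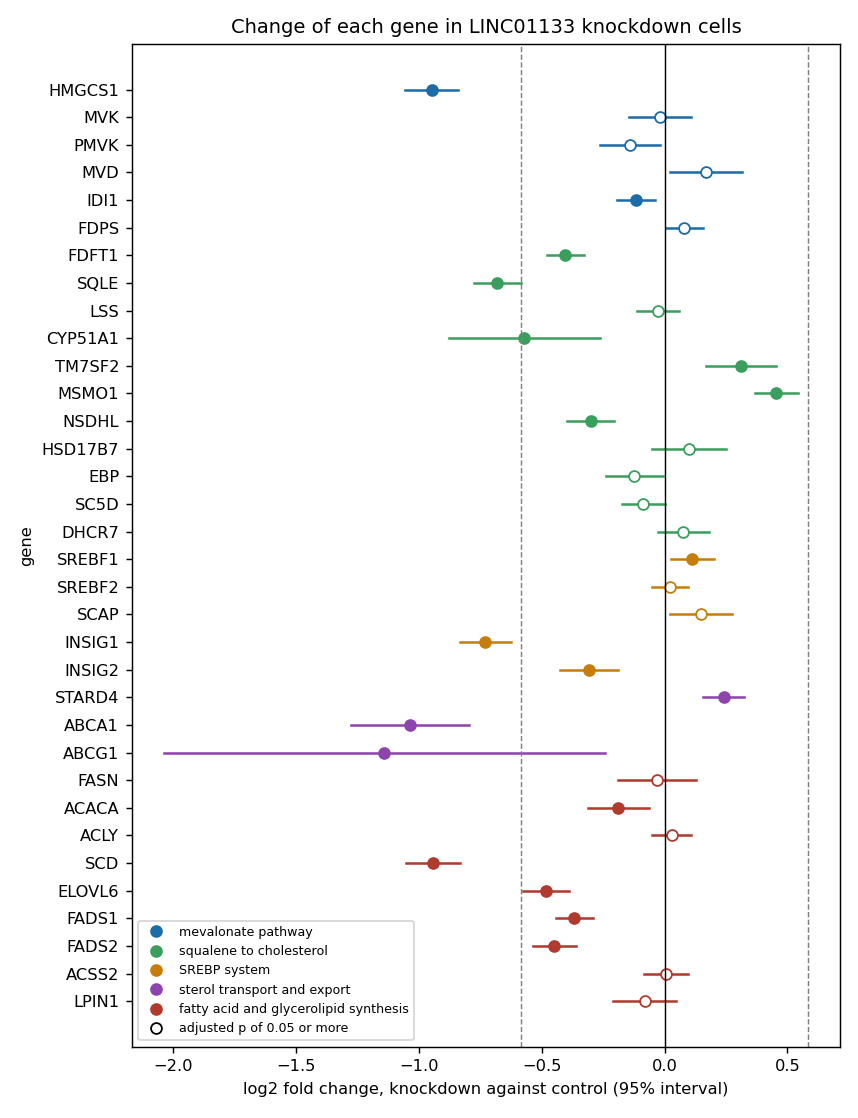
Log2 fold change of each of the 34 genes in knockdown against control cells (x axis) with its 95% interval, from edgeR's fit over 3 libraries per group; genes are on the y axis, coloured by role. Filled points had an adjusted p under 0.05, open points did not, and dashed lines mark the fold change cutoff of 1.5; 6 genes lie past the left line and no gene past the right one.

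**Figure D2:**
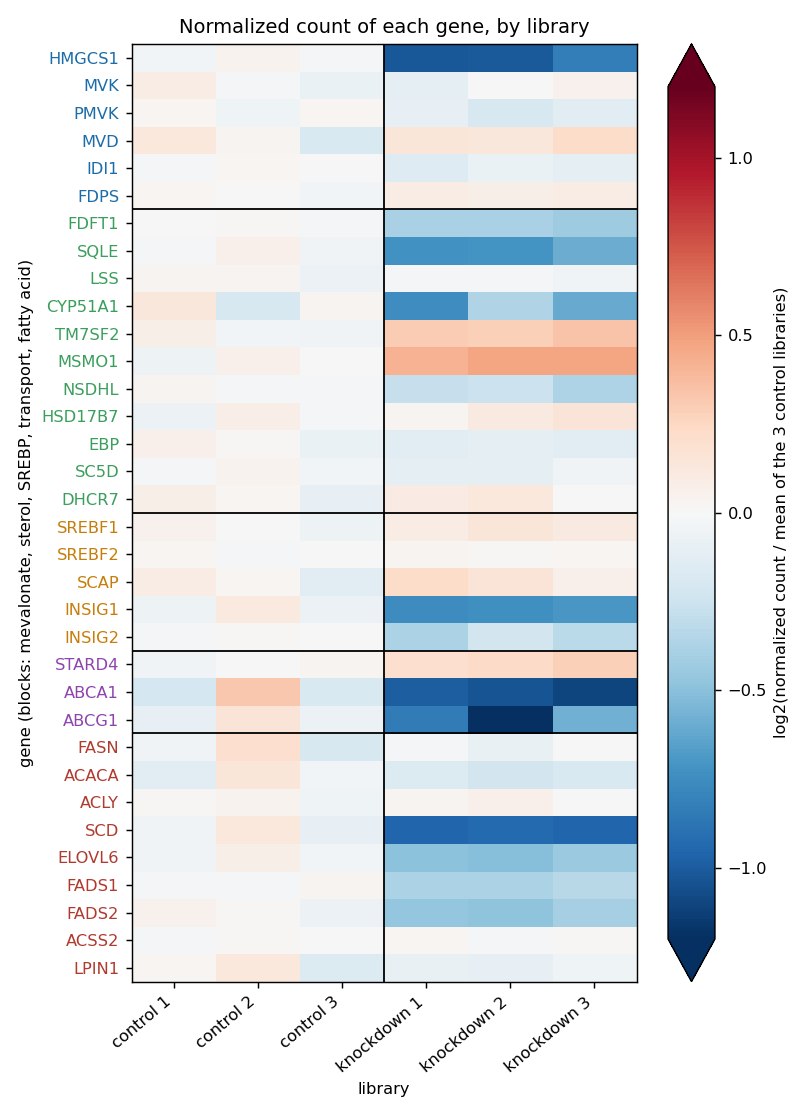
Normalized count of each gene (y axis) in each of the 6 libraries (x axis), as log2 of its ratio to the mean of the 3 control libraries, with blue for lower and red for higher. HMGCS1, SQLE, INSIG1, SCD, ABCA1 and the barely expressed ABCG1 are blue in all 3 knockdown libraries, while MSMO1, TM7SF2 and STARD4 are red in all of them.

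The mevalonate pathway turns acetyl units into the isoprenoid farnesyl pyrophosphate, and its 6 listed enzymes had a median log2 fold change of -0.067. A single one of them (16.7%) was DE, and it was lower. Of all genes tested, 11.7% were DE and 6.43% were DE and lower. HMGCS1, on chromosome 5 from 43287470 to 43313512 of GRCh38 (minus strand), encodes the cytosolic synthase that makes HMG-CoA. Its normalized counts were 12247, 12934 and 12389 in control and 6206, 6218 and 7066 in knockdown libraries. Every knockdown library was far below every control library. The level was 51.9% of that in control cells, and the log2 fold change was -0.95 (standard error 0.050, edgeR adjusted p = 1.1e-08).

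The enzymes that follow in the mevalonate pathway changed far less. MVK and PMVK, the successive kinases of this pathway, had log2 fold changes of -0.018 (95% interval -0.15 to 0.11) and -0.14 (-0.26 to -0.020). PMVK passed without control library 2 (edgeR adjusted p = 0.036). MVD, the decarboxylase, had counts of 1132, 1061 and 909 in control and 1147, 1139 and 1205 in knockdown libraries, a log2 fold change of 0.17 (edgeR adjusted p = 0.058). The knockdown values of MVD were all above the control values, but by a margin smaller than the spread of the controls, and without control library 1 or 2 the gene passed (edgeR adjusted p = 0.012 and 0.034). IDI1, which isomerizes isopentenyl pyrophosphate, fell slightly, to 92.3% of its control level (log2 fold change -0.12, edgeR adjusted p = 0.018). The call of IDI1 was lost without knockdown library 1 (edgeR adjusted p = 0.12) and with scaling by library size alone (edgeR adjusted p = 0.23). FDPS, which joins the isoprene units, had 5640.5 ± 101 counts in control and 5964 ± 41.1 in knockdown cells (SD, n = 3 each) and did not pass (edgeR adjusted p = 0.072). IDI1 and FDPS have 3 and 8 annotated pseudogenes, and since only uniquely mapped reads were counted, their counts may be incomplete.

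Of the 11 listed enzymes from squalene to cholesterol, 4 were lower and 2 were higher with an adjusted p under 0.05, against 25.0% and 23.3% of all genes tested, and the median log2 fold change was -0.086. The entry steps fell. FDFT1, squalene synthase, had 5203, 5222 and 5086 counts in control and 3937, 3937 and 3848 in knockdown libraries. This is 75.6% of the control level (log2 fold change -0.40, standard error 0.035, edgeR adjusted p = 9.2e-07). SQLE, squalene epoxidase and a rate-limiting step, had 10339, 10860 and 10135 counts against 6316, 6354 and 6898. SQLE was DE, with 62.4% of the control level and a log2 fold change of -0.68 (standard error 0.043, edgeR adjusted p = 5.5e-08). For both genes the libraries of the groups were well separated.

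LSS, which closes the ring to give lanosterol, was level, with a log2 fold change of -0.028 (95% interval -0.11 to 0.057). CYP51A1, lanosterol demethylase, had 134, 107 and 125.4 counts in control and 72.9, 95.2 and 80.6 in knockdown libraries, a log2 fold change of -0.57 (standard error 0.14, edgeR adjusted p = 0.0048) just under the fold cutoff. It passed that cutoff without control library 2 (-0.66) and without knockdown library 2 (-0.68). Its low count is of limited meaning, because 68.2% of its exon bases are shared with ENSG00000285772 on the same strand and reads on shared bases were not assigned to either gene. The same holds for 36.4% of the exon bases of EBP, the sterol isomerase, which had a log2 fold change of -0.12 (edgeR adjusted p = 0.074, or 0.034 without control library 3).

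The enzymes that remove the methyl groups after lanosterol moved in opposite directions. MSMO1, the methylsterol oxidase, lies on chromosome 4 from 165327667 to 165343164 of GRCh38 (plus strand). It had 4639, 5049 and 4873 counts in control and 6478, 6743 and 6743 in knockdown libraries. This was the highest log2 fold change of the list, at 0.46 (standard error 0.040, edgeR adjusted p = 1.1e-06), which stayed under the fold cutoff. NSDHL, the sterol dehydrogenase of the same demethylation complex, fell to 81.1% of its control level (log2 fold change -0.30, edgeR adjusted p = 1.0e-04). HSD17B7, the reductase of that complex, had a log2 fold change of 0.10 (95% interval -0.050 to 0.25) and shares sequence with 2 annotated pseudogenes.

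TM7SF2, a sterol reductase acting beside them, rose from 388 ± 17.1 to 482 ± 9.82 counts (SD, n = 3 each; log2 fold change 0.31, edgeR adjusted p = 0.0016). SC5D, which introduces a double bond, and DHCR7, which completes cholesterol, had log2 fold changes of -0.086 (95% interval -0.17 to 0.00062) and 0.076 (-0.028 to 0.18), neither of which passed. Over all 17 enzymes of the route to cholesterol, 2 (11.8%) were DE, against 11.7% of all genes tested. At an adjusted p under 0.05, 6 were lower and 2 were higher, and 9 did not pass. Those that passed are 47.1% of the 17, against 48.3% of all genes tested.

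In the SREBP system, the transcription factors themselves kept nearly the same RNA level while their inhibitors fell. SREBF2, the main activator of sterol genes, had 8865, 8607 and 8654 counts in control and 8893, 8811 and 8858 in knockdown libraries. The groups overlapped, and the log2 fold change of 0.024 had a 95% interval from -0.049 to 0.097. SREBF1, the main activator of fatty acid genes and an LXR target, rose by a small amount, from 2957 ± 122 to 3200 ± 61.3 counts (SD, n = 3 each; log2 fold change 0.11, edgeR adjusted p = 0.035). Its call was lost with DESeq2 (adjusted p = 0.069), with no filter on low counts (edgeR adjusted p = 0.053) and without any of 4 libraries (log2 fold change 0.084 to 0.13, edgeR adjusted p = 0.061 to 0.12). Those were control library 3 and each of the knockdown libraries. SCAP had 1640, 1565 and 1406 against 1792, 1713 and 1601 counts, and the overlapping groups gave a log2 fold change of 0.15 (edgeR adjusted p = 0.052). SCAP passed in 7 of the 13 alternative fits, among them those without control library 1, control library 2 or knockdown library 3 (edgeR adjusted p = 0.020 to 0.032). The counts do not show how much SREBP protein was cleaved.

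INSIG1, on chromosome 7 from 155297776 to 155310235 of GRCh38 (plus strand), is both a brake on SREBP processing and an SREBP target. Its counts were 8579, 9701 and 8531 in control and 5311, 5361 and 5505 in knockdown libraries. All knockdown values lay below all control values, at 60.3% of the control level (log2 fold change -0.73, standard error 0.049, edgeR adjusted p = 7.7e-08). Control library 2 was the highest, and without it the log2 fold change was -0.67. INSIG2, the related protein that also retains SCAP, fell less, from 899 ± 9.59 to 727 ± 42.2 counts (SD, n = 3 each; log2 fold change -0.31, edgeR adjusted p = 4.6e-04).

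**Figure D3:**
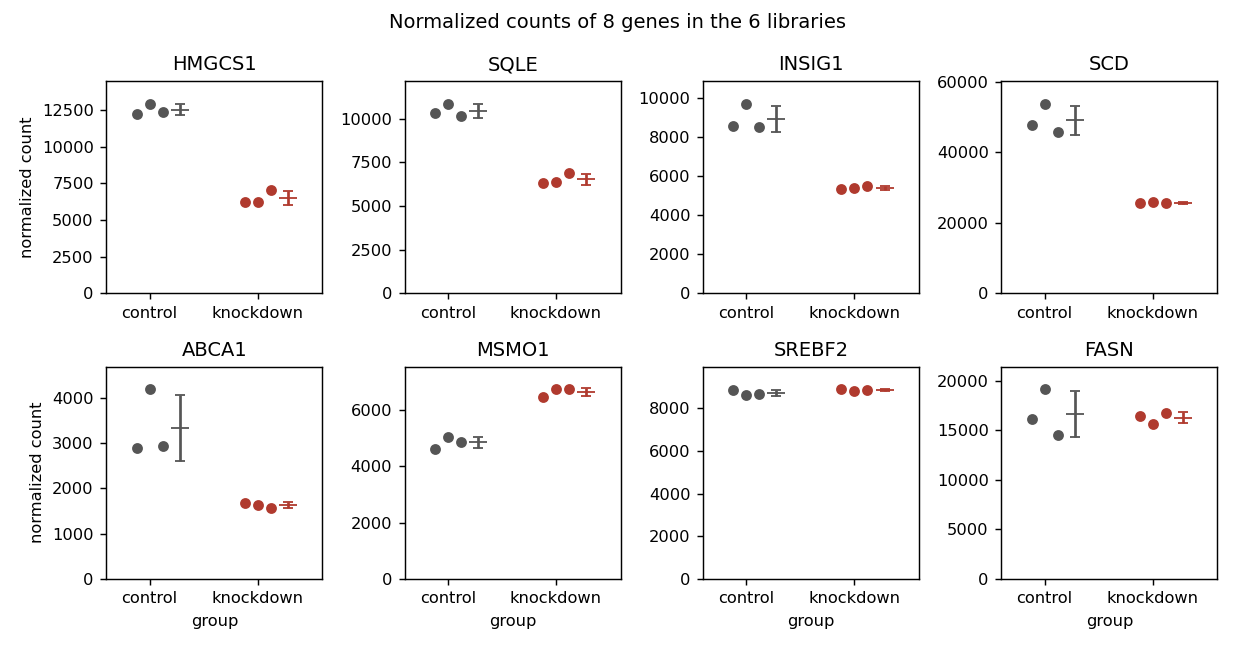
Normalized counts (y axis, from 0) of 8 genes in the 3 control (grey) and 3 knockdown (red) libraries, with 1 point per library and the mean ± SD beside the points. HMGCS1, SQLE, INSIG1, SCD and ABCA1 are lower in every knockdown library, MSMO1 is higher in every one, and the groups of SREBF2 and FASN overlap.

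Both listed carriers that move sterol out of the cell fell. ABCA1, on chromosome 9 from 104781006 to 104928155 of GRCh38 (minus strand), loads cholesterol onto apolipoprotein A-I. It had 2896, 4195 and 2941 counts in control and 1689, 1629 and 1559 in knockdown libraries. The control libraries were uneven, but the lowest of them still lay far above the highest knockdown library. The level was 48.6% of that in control cells (log2 fold change -1.04, standard error 0.11, edgeR adjusted p = 5.7e-06). Without the high control library 2 the log2 fold change was -0.84 (standard error 0.044, edgeR adjusted p = 1.5e-12).

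ABCG1, the exporter to high-density lipoprotein, was barely expressed. Before normalization, control libraries had 15, 15 and 14 counts on it, and knockdown libraries had 10, 2 and 9. The groups did not overlap, and the log2 fold change was -1.14 (standard error 0.41, edgeR adjusted p = 0.037). This call was lost in 5 of 6 fits that left out a library (edgeR adjusted p = 0.054 to 0.14), and without knockdown library 2 the log2 fold change was -0.70. DESeq2 did not call it either (adjusted p = 0.13), nor did the fit with the replicate number as a block (edgeR adjusted p = 0.054). STARD4, a soluble carrier that moves cholesterol between membranes inside the cell and an SREBP target, went the other way. It had 4265, 4381 and 4486 counts in control and 5030, 5132 and 5353 in knockdown libraries, a log2 fold change of 0.24 (standard error 0.039, edgeR adjusted p = 2.0e-04).

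Among the 9 fatty acid and glycerolipid genes, 5 were lower and none was higher with an adjusted p under 0.05, and the median log2 fold change was -0.19. Those 5 were the desaturases SCD, FADS1 and FADS2, the elongase ELOVL6 and the carboxylase ACACA, whereas FASN, ACLY, ACSS2 and LPIN1 did not pass. Over all genes tested, 25.0% were lower and 23.3% higher at that threshold. SCD, stearoyl-CoA desaturase, lies on chromosome 10 from 100347233 to 100364826 of GRCh38 (plus strand) and makes oleate and palmitoleate. Its counts were 47768, 53697 and 45766 in control and 25434, 25736 and 25456 in knockdown libraries. The knockdown libraries were nearly identical to each other and all lower than the controls, at 52.0% (log2 fold change -0.94, standard error 0.050, edgeR adjusted p = 1.2e-08). Without control library 2 the log2 fold change was -0.88.

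ELOVL6, which extends palmitate to stearate, fell to 71.6% of its control level, from 2811 ± 121 to 2011 ± 49.2 counts (SD, n = 3 each; edgeR adjusted p = 1.1e-06). FADS1 and FADS2, the desaturases of polyunsaturated fatty acids, lie on chromosome 11 on opposite strands. The annotated span of FADS1 (61799627 to 61829318) falls within that of FADS2 (61792980 to 61867354). FADS1 fell to 77.5% of its control level (log2 fold change -0.37, edgeR adjusted p = 2.3e-06) and FADS2 to 73.3% (-0.45, edgeR adjusted p = 1.5e-06). For these 3 genes the groups did not overlap, and each fell by less than the fold cutoff.

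FASN, fatty acid synthase, had 16166, 19129 and 14559 counts in control and 16471, 15612 and 16714 in knockdown libraries. Its groups overlapped, and the log2 fold change of -0.031 had a 95% interval from -0.19 to 0.13. ACLY, which supplies cytosolic acetyl-CoA, and ACSS2, which makes it from acetate, had log2 fold changes of 0.030 (95% interval -0.049 to 0.11) and 0.0066 (-0.084 to 0.097). ACACA, the carboxylase that makes malonyl-CoA, fell to 87.7% of its control level (log2 fold change -0.19, edgeR adjusted p = 0.015), or by 0.11 on the log2 scale without control library 2. Its call was lost without knockdown library 2 (edgeR adjusted p = 0.068) and with scaling by library size alone (edgeR adjusted p = 0.069). LPIN1, a phosphatidate phosphatase of triglyceride synthesis, had 3097, 3329 and 2714 against 2867, 2841 and 2935 counts and did not pass (log2 fold change -0.080, edgeR adjusted p = 0.29), except without control library 3 (-0.16, edgeR adjusted p = 0.014). FASN and LPIN1 were both highest in control library 2.

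The level of each gene was also expressed as RPKM, so that genes could be set side by side. On this scale SCD was the highest in control cells, at 289 ± 24.3, followed by ACLY at 100.1 ± 3.06. INSIG1 (75.7 ± 5.61) and SQLE (75.0 ± 2.68) came next and did not differ beyond their spread, nor did FASN (55.1 ± 7.68) from HMGCS1 (58.4 ± 1.69) and MSMO1 (52.6 ± 2.23; SD, n = 3 for each level). In knockdown cells SCD was still the highest, at 150.5 ± 0.992. MSMO1, at 72.1 ± 1.66, then lay above SQLE (46.8 ± 2.34), INSIG1 (45.6 ± 0.852) and HMGCS1 (30.3 ± 2.30), all of which it was below in control cells. CYP51A1 and ABCG1 had the lowest levels in control cells, at 0.906 ± 0.10 and 0.077 ± 0.0075. The levels of CYP51A1 and EBP are understated, because reads were not assigned on the 68.2% and 36.4% of exon bases that another gene shares. Merged exons include rarely used ones, so a level is understated for genes with many isoforms.

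**Figure D4:**
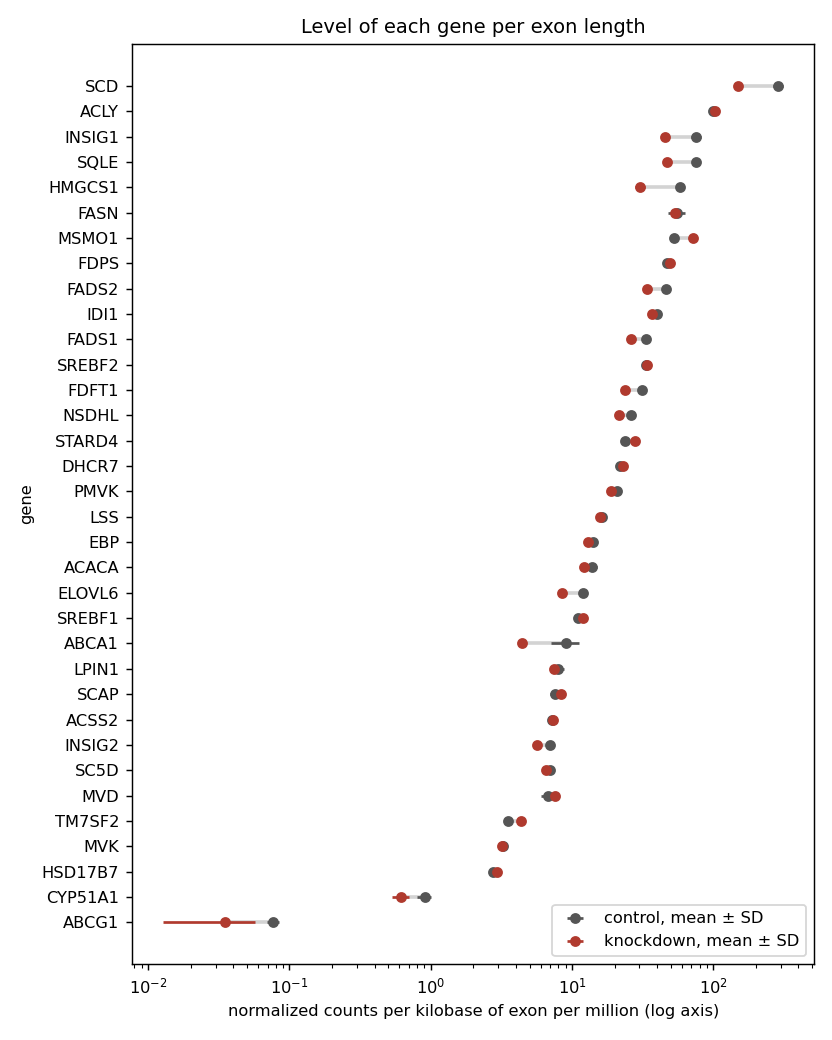
RPKM, the normalized counts per kilobase of exon scaled to library size (x axis, log scale) of the 34 genes, ordered by their level in control cells, as mean ± SD over 3 control (grey) and 3 knockdown (red) libraries. Grey bars join the groups; SCD has the highest level in both groups, and MSMO1 moves above SQLE, INSIG1 and HMGCS1 in knockdown cells.

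A small interfering RNA can also lower RNAs whose 3′ UTR matches the seed of its guide strand, so the siRNA and its matches among the lipid genes are shown. The guide strand follows, with its seed (bases 2 to 8) in capitals.
siRNA LINC01133a, antisense strand: uCCAUUCUcagguaacuucaa
A match to the seed reads AGAATGG, and is extended to 8 bases where an A follows. Of the 34 genes, 6 (17.6%) hold a match in the 3′ UTR of their canonical GENCODE v44 transcript, against 17.1% of 12538 tested genes with an annotated 3′ UTR. Matches of 8 bases were found in 2 genes (5.88%), against 5.77%. The matches in the genes that were DE follow, with the matching bases in capitals and 8 bases on either side of the seed match, read in the direction of the RNA from GRCh38.
HMGCS1, chr5:43289602-43289624 (minus strand): tgatttaaAGAATGGtggcaaaa
HMGCS1, chr5:43289151-43289173 (minus strand): gttcatctAGAATGGAggaattt
INSIG1, chr7:155309620-155309642 (plus strand): cagtcagcAGAATGGAagcttag
ABCA1, chr9:104783701-104783723 (minus strand): cagttgacAGAATGGtgccatgc
ABCA1, chr9:104783214-104783236 (minus strand): gaatccttAGAATGGcctctttg

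HMGCS1, INSIG1 and ABCA1, 3 of the 6 DE genes, thus hold matches, while SQLE, SCD and ABCG1 hold none. FADS1, FADS2 and LPIN1 hold 1 match of 7 bases each. None of the 4 genes that were higher at an adjusted p under 0.05 (MSMO1, TM7SF2, STARD4 and SREBF1) holds one. The median log2 fold change was -0.59 over the 6 genes with a match and -0.030 over the other 28. Over all tested genes with a 3′ UTR it was -0.095 with a match and 0.0014 without. The share with a match was not counted among all genes that were lower or higher, so these counts have no like background. The part of the matches in these changes was not tested.

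Promoter sequences of 300 bases (250 before to 50 after the start site, RefSeq, GRCh38.p14) were at hand for 30 of the 34 genes. They were searched on both strands for CCAAT, the box bound by NF-Y, a partner of SREBPs, for the E-box CACGTG, and for TCACNCCAC, a consensus of the sterol regulatory element, none of which overlap in letters. CCAAT was present in 18 of the 30 windows (60%), against 34.6% of 35116 windows of all genes, the E-box in 5 (16.7%), against 7.26%, and the sterol regulatory element in 1 (3.33%), against 1.13%. The exact consensus misses the many variant elements, and the windows of all genes were not limited to the genes tested. The windows of MSMO1, the gene that rose most, and of SCD and INSIG1, which fell, are printed in the direction of the gene with CCAAT (or ATTGG, its complement) and CACGTG in capitals.
MSMO1, chr4:165327419-165327718: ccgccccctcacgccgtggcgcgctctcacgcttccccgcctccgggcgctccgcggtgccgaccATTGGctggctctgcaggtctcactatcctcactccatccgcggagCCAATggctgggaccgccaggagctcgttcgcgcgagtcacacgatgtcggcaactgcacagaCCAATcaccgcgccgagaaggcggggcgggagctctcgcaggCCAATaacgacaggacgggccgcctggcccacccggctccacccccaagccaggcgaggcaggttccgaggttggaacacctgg
SCD, chr10:100346983-100347282: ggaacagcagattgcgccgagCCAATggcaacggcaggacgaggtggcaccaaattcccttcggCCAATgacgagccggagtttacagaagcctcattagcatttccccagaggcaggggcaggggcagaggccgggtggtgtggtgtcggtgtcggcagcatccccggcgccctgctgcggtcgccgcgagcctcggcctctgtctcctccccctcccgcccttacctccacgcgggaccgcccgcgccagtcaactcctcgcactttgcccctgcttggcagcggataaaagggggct
INSIG1, chr7:155297628-155297927: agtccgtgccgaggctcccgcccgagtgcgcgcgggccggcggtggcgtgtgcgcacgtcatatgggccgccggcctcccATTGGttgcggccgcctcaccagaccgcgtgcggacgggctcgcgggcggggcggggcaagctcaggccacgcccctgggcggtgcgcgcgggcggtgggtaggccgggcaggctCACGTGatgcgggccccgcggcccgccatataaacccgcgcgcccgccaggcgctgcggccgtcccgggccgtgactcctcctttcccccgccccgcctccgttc
The MSMO1 window holds 4 boxes, that of SCD 2 and that of INSIG1 1 with an E-box. The only window with the exact sterol regulatory element is that of SREBF2, shown in part with the element in capitals.
SREBF2, chr22:41832945-41833004: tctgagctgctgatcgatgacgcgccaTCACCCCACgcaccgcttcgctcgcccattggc
RefSeq's start site can lie inside the gene as GENCODE draws it, as it does for HMGCS1, whose window holds none of the motifs and does not cover the sequence before the GENCODE start.

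Genes around the sterol pathway, taken from lists written by function, also moved in both directions. Of the 133 tested, 14 (10.5%) were DE, against 11.7% of all genes tested. Of 12 genes for SREBP processing and sterol-regulated degradation, 7 were higher and 2 lower at an adjusted p under 0.05, where 23.3% of all genes tested were higher and 25.0% lower. MBTPS2, the protease that makes the final cut in SREBPs, was DE, with 1526, 1592 and 1606 counts in control and 766, 812 and 728 in knockdown libraries. This is 48.8% of the control level (log2 fold change -1.03, standard error 0.050, edgeR adjusted p = 5.4e-09), and its 3′ UTR holds 1 match to the siRNA seed. MBTPS1, the protease of the first cut, rose to 127% of its control level (log2 fold change 0.35, edgeR adjusted p = 5.4e-06), and TMUB1, which acts in the degradation of sterol enzymes, to 120.4% (0.27, edgeR adjusted p = 0.0014).

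Of 19 tested genes for sterol uptake, storage and trafficking, 7 were higher and 7 lower at an adjusted p under 0.05, against 23.3% and 25.0% of all genes. The 3 DE genes were all lower, against 6.43% of all genes that were DE and lower and 5.30% that were DE and higher. GRAMD1B, which carries cholesterol from the plasma membrane to the endoplasmic reticulum, fell from 487 to 147 counts on average (log2 fold change -1.73, standard error 0.12, edgeR adjusted p = 9.8e-08). NCEH1, a cholesteryl ester hydrolase, fell to 46.0% of its control level, and SOAT1, which makes the esters, to 56.2% (edgeR adjusted p = 1.3e-08 and 2.7e-08). Their knockdown values were all below their control values, and GRAMD1B and SOAT1 each hold a seed match. FAXDC2, a sterol enzyme outside the 34 genes, fell to 74.7% of its control level (log2 fold change -0.43, edgeR adjusted p = 0.0012).

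Among 12 tested LXR and nuclear receptor genes, 5 were higher and 4 lower at an adjusted p under 0.05, against 23.3% and 25.0% of all genes. The LXR partner RXRA fell to 74.3% of its control level (log2 fold change -0.43, edgeR adjusted p = 3.6e-06), PPARA rose to 138% and ABCA7, a relative of ABCA1, to 148%, all by less than the fold cutoff. PPARA, which rose, holds an 8-base match to the siRNA seed. The single DE gene was PPARG, named after its values were seen, at 54.7 and 32.9 counts (log2 fold change -0.73, edgeR adjusted p = 0.0041).

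Of 21 tested genes for elongation, desaturation and activation of fatty acids, 6 were higher and 9 lower at an adjusted p under 0.05, against 23.3% and 25.0% of all genes. ELOVL2, an elongase of polyunsaturated fatty acids, fell to 49.5% of its control level (log2 fold change -1.01, edgeR adjusted p = 3.4e-09) and holds an 8-base seed match. FADS3, the third gene of the FADS cluster, rose to 203% (log2 fold change 1.01, edgeR adjusted p = 7.7e-07), in contrast to FADS1 and FADS2. ME1, which supplies NADPH, fell by 0.53 on the log2 scale (edgeR adjusted p = 3.5e-04) and holds a 7-base seed match. Of 18 glycerolipid and lipid droplet genes, 4 were higher and 9 lower, against the same shares of all genes. LPIN3, a relative of LPIN1, rose to 157% (log2 fold change 0.65, edgeR adjusted p = 1.9e-05), DGAT2, which makes triglyceride, fell from 78.8 to 40.7 counts, and MGLL, a monoglyceride lipase, fell to 68.6% of its control level. The remaining DE genes of these lists, ELOVL7 and ACSL5 (higher) and GPAT3 (lower), had means under 50 counts in both groups and are named after their values were seen.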

How the data were processed

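RNA-seq of 12Z cells (3 control and 3 knockdown libraries) was analysed. Poly-A RNA libraries (the labels and the methods name different kits) were sequenced in read pairs. The authors aligned the reads with STAR 2.7.6a to GRCh38.p13 with GENCODE v36, kept uniquely mapped reads and deposited counts per gene without normalization. Of the stranded columns, the one counting read 2 in the sense of the gene was used, as it held 93.9% to 94.1% of stranded counts (kit strandedness was not used). Symbols, exon lengths and 3′ UTRs came from GENCODE v44 on GRCh38, matched by gene identifier.

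Genes were kept by filterByExpr (minimum count 10) and normalized by TMM. Normalized counts are counts scaled to the mean effective library size. RPKM divides them by merged exon length and library size. In R 4.3.3, edgeR 4.0.16 fitted group alone, and its quasi-likelihood p-values were adjusted by Benjamini-Hochberg across the 15155 genes that passed. DE followed the study's cutoffs. No set test was run. The comparison was tested on simulated data. The study calls the replicates biological, and with 3 per group the SD or standard error sets the precision. No pair of libraries in a group differed by less than counting noise.

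The genes and lists were chosen with earlier results of these data known. Named were LINC01133, the 34 genes, the markers, and up to 3 genes per companion list with the largest absolute log2 fold change among those with an adjusted p under 0.05 and a mean count of at least 50. 1 gene that this rule names is not reported here. Alternatives were DESeq2 1.42.0, median-of-ratios factors, library size alone, other low-count filters, the unstranded column, a replicate block and each library left out in turn.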

Additional observations from a re-analysis of the deposited data

How the results depend on the processing

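Over 13 alternatives, 28 of the 34 genes kept their direction and their side of the DE cutoffs, and 17 kept their direction and their side of an adjusted p of 0.05. Scaling by library size alone moved most: 55.9% in place of 45.2% of all DE genes were higher, the median log2 fold change of all genes tested became 0.065, 10 in place of 4 lipid genes were higher at an adjusted p under 0.05, and the median log2 fold changes of the mevalonate, squalene to cholesterol and SREBP groups became -0.0044, -0.024 and 0.086. MVK (0.044), LSS (0.034) and FASN (0.033) then changed sign, none of them past the threshold. With at least 10 counts in every library ABCG1 was not tested and the median of the transport genes became -0.39. Over the 6 fits that leave out a library, the median of all genes tested ranged from 0.0033 to 0.0072, the number of DE lipid genes from 5 to 6, and the numbers higher and lower at an adjusted p under 0.05 from 3 to 6 and from 13 to 16. In these fits the log2 fold changes of MVK (-0.054 to 0.033), FASN (-0.12 to 0.080) and ACSS2 (-0.0015 to 0.023) changed sign: MVK without control or knockdown library 1, FASN without control or knockdown library 2, and ACSS2 without control library 1. The causes were not tested.

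The labels state no pairing of the samples by replicate number. The correlation of deviations from group means was -0.015, 0.0049 and 0.057 for the same numbers, and -0.066 to 0.071 for unlike numbers. With 3 libraries per group these values cannot decide whether the samples were paired. With the replicate number as a block, 5 lipid genes were DE and lower, without ABCG1 (log2 fold change -1.14), SCAP passed an adjusted p of 0.05 (edgeR adjusted p = 0.012), and 1747 genes were DE against 1778. Counting limits ABCG1 and CYP51A1, the only lipid genes with a mean under 200 normalized counts.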

Other observations

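Of 14 genes of the isoprenoid branches, 5 were higher and 5 lower at an adjusted p under 0.05 from edgeR's quasi-likelihood test, against 23.3% and 25.0% of all genes tested, and none was DE, against 11.7% of all genes. PDSS2, which builds the tail of coenzyme Q, fell to 85.0% of its control level, NUS1, of dolichol synthesis, to 86.1%, and RCE1, which trims prenylated proteins, rose to 116%. NUS1 holds an 8-base match to the siRNA seed. Of 21 genes of fatty acid oxidation, 7 were higher and 4 lower, against the same shares of all genes, and none was DE. ACADS, a short-chain dehydrogenase, had a log2 fold change of 0.49 (edgeR adjusted p = 0.0036), ETFB, of electron transfer, one of 0.28 (edgeR adjusted p = 0.021), and ECHS1, a hydratase, fell by 0.32 on the log2 scale (edgeR adjusted p = 1.4e-05). ECHS1 holds a 7-base match to the siRNA seed.

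AMPK is the kinase that phosphorylates ACACA. PRKAA1, a catalytic subunit, was DE and higher, with 3432, 3521 and 3579 counts in control and 5801, 5920 and 5843 in knockdown libraries (log2 fold change 0.74, standard error 0.036, edgeR adjusted p = 5.1e-09). The regulatory subunit PRKAG1 was DE and lower, at 64.0% of its control level (log2 fold change -0.65, edgeR adjusted p = 5.3e-07), and holds an 8-base match to the siRNA seed. PRKAG2 fell to 74.7% (log2 fold change -0.42). Of the 12 AMPK and mTORC1 genes, 3 were higher and 2 lower at an adjusted p under 0.05, against 23.3% and 25.0% of all genes.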
